A study of Ovis aries with 16 samples.

Results

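The genes described here are 4 transcription factors grouped as markers of hypothalamic nuclei, a use that was not tested: NR5A1, ISL1, ARNT2 and NEUROD1. Every non-control probe that carried one of these names on a single-color Agilent sheep array was taken, in every sample, as a marker of how much of each region the tissue held. This gave 7 probes of 15008: 1 for NR5A1 and 2 each for ISL1, ARNT2 and NEUROD1. Among the 961 gene names that the array carries these are 4. All 7 probes were tested, since each stood well above its background on 4 or more of 16 arrays, as did 12937 probes in all. NR5A1 met that minimum through the other groups, since 0 of 4 of its spots were well above background after brachiocephalic occlusion alone.

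The study measured RNA from whole fetal hypothalamus in 16 chronically catheterized sheep at 124 to 128 days of gestation (term 147 days), 4 fetuses per group and 1 array per fetus. The control fetuses had a sham occlusion of 10 min and no drug. In the BCO group the brachiocephalic artery, which in the sheep supplies the head, was occluded for 10 min. The estradiol fetuses received 250 ug of estradiol per day for 5 days and a sham occlusion, and the estradiol+BCO fetuses received the same estradiol and a real occlusion. Collection followed 1 h after occlusion or sham began, so every group shares the catheters, the blood sampling and the recovery. The labels do not name a strain, and nothing in them describes how the hypothalamus was dissected.

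NR5A1 (steroidogenic factor 1) is an orphan nuclear receptor that in the brain is largely restricted to the ventromedial nucleus, which it is needed to form; outside the brain it drives steroid synthesis genes and acts in the gonadotropes of the pituitary. ISL1 is a LIM homeodomain factor needed for arcuate neurons that make POMC, AgRP, GHRH and somatostatin. ARNT2 is a bHLH-PAS protein, the common partner of SIM1 in forming the neurons of the paraventricular and supraoptic nuclei. NEUROD1 is a bHLH factor of differentiating neurons and endocrine cells, including cells of the pituitary that make POMC. In bulk tissue, fewer cells of a type and less RNA per cell cannot be told apart.

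The probes of NR5A1, ISL1 and ARNT2 are shown because they decide how far the readouts of a gene are independent. Each is 60 bases long, written as the scanner files give it, and the capitals mark the bases that both probes of a gene share. The NR5A1 probe has no partner and is in lower case throughout.
NR5A1: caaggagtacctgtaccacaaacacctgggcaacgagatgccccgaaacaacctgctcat
ISL1 brighter probe: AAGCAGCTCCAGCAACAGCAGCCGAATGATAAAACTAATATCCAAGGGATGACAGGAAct
ISL1 dimmer probe: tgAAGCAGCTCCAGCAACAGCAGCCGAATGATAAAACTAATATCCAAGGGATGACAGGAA
ARNT2 brighter probe: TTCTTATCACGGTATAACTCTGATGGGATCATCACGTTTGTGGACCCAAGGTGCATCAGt
ARNT2 dimmer probe: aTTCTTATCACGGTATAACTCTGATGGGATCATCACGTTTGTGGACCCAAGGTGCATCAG
The ISL1 probes share 58 of 60 bases and the ARNT2 probes 59 of 60, so each pair reads the same stretch of RNA and is a technical repeat, not 2 sites. The NEUROD1 probes share 0 overlapping bases at their ends and read different stretches of the same target. Brighter and dimmer refer to the mean signal over the 16 arrays.

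Each level below is the log2 of the processed signal, scaled by subtracting the array's own 75th percentile, which lay between 2047 and 2939 intensity units, so a level of 0 is the signal of that percentile and negative levels are dimmer. Levels of different probes cannot be set against each other. Between 77.27 and 86.41% of probes were well above background per array, and RNA integrity numbers ran from 7.4 to 8.4 over the series. Of 14 hypothalamic peptide genes, all but GHRH and GNRH1 were well above background on 16 of 16 arrays, POMC, SST and OXT among them. GHRH was so on 11 arrays, with 0 of 4 in BCO, and GNRH1 on 14, with 2 of 4 in BCO. POMC is also made in the pituitary, and how much of the RNA came from the hypothalamus was not tested. The arrays lay on 2 slides, each with 2 fetuses of every group, and 860 probes differed between slides, none of them among the 7 (adjusted p 0.38 to 0.882, limma). Precision is limited throughout by having 4 arrays in a group.

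Across the 4 groups, the BCO fetuses had the lowest mean level for 6 of the 7 probes, the brighter ARNT2 probe being the exception. Leaving out BCO replicate 2, 3 or 4 made it 5 of 7, and leaving out replicate 1 kept 6. No probe of the 4 genes passed an adjusted p of 0.05 in any of the 5 comparisons (limma, Benjamini-Hochberg over 12937 probes). For BCO against control the fit called 0 of 12937 probes, or 0%, and 927 (7.17%) had an unadjusted p under 0.05. Of the 7 probes 3 did, NR5A1 without a detected BCO spot and both ISL1 probes, which read 1 stretch of RNA. In that comparison NR5A1 and both NEUROD1 probes had all 4 BCO arrays below all 4 control arrays, as did 1.72% of all probes with complete values. Nothing is read from this count, because NR5A1 was tested only through its level in the other groups and the NEUROD1 gaps between the groups were 0.001 and 0.006. The exact permutation test gave each of them p = 0.0286, the smallest that 4 against 4 allows, and 0.267 after adjustment over the 28 exact tests run. Median centring kept NR5A1 without overlap and not NEUROD1, and under quantile normalization or normexp background correction 0 of the 7 probes were without overlap.

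**Figure D1:**
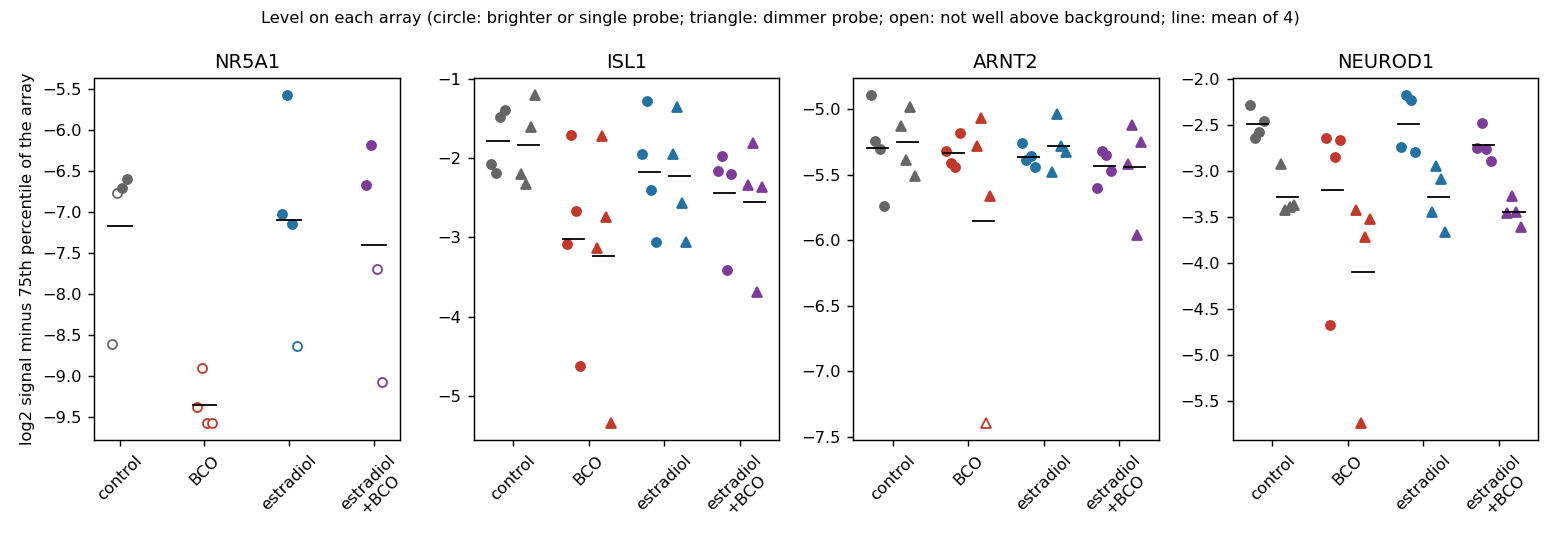
Scaled log2 level (vertical axis) for each of the 4 genes, with 1 point per fetus, 4 fetuses per group, circles for the brighter or single probe, triangles for the dimmer probe, open symbols for spots not well above background and lines for group means. All 4 NR5A1 symbols of the BCO group are open, and single low BCO fetuses stand out for ISL1, NEUROD1 and the dimmer ARNT2 probe.

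NR5A1, the ventromedial nucleus marker, was the dimmest readout relative to its own background. In the control fetuses its levels were -8.61, -6.77, -6.71 and -6.60, in replicate order, and replicates 3 and 4 were well above background. In the BCO fetuses they were -9.38, -8.90, -9.57 and -9.58, with 0 of 4 well above background. In the estradiol fetuses they were -7.03, -5.57, -7.15 and -8.64, with replicates 1 to 3 above background. The highest and lowest of these differ by more than the whole control range, as do those of the last group.

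In the estradiol+BCO fetuses the NR5A1 levels were -6.67, -6.18, -7.70 and -9.07, and replicates 1 and 2 were above background. The 4 BCO values thus lay below every control value, with control replicate 1, also undetected, the nearest, whereas the estradiol+BCO group spanned both ranges. In intensity units the 16 signals ran from 3.071 to 48.23, a narrow window close to the scanner's local background. NR5A1 was therefore detected on 7 of 16 arrays: 2 control, 0 BCO, 3 estradiol and 2 estradiol+BCO.

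The group means of NR5A1 were -7.17 ± 0.96 in control, -9.36 ± 0.32 in BCO, -7.10 ± 1.25 in estradiol and -7.40 ± 1.28 in estradiol+BCO (SD, n = 4). The BCO spots were not detected, so the control mean was set against the mean of the lowest signal well above background on each BCO array (-7.29). That gives a ratio of 1.08. Such a signal is not a strict limit of detection. On control replicate 2 it was -6.80, and NR5A1 at -6.77 was still not well above background. The ratio also takes the control mean at its face value, although 2 of its 4 spots were themselves not well above background, so it secures no minimum fold. The fitted difference of -2.18 ± 0.67 (SE, adjusted p = 0.493, limma) rests on undetected BCO spots and is not a measured fold. It was -1.45 on slide 1 and -2.92 on slide 2. With normexp correction, which compresses signals near background, the same difference was -0.29.

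Between estradiol+BCO and BCO, which uses the same 4 BCO arrays, the fitted NR5A1 difference was 1.95 ± 0.67 (adjusted p = 0.364, limma) and rests on the same undetected spots. No fold is given, because the estradiol+BCO mean lay below the mean of the lowest signals well above background on the BCO arrays. The exact permutation p was 0.0571, and normexp correction gave a difference of 0.21. For scale, the fit called 0 probes (0%) in this comparison, 9.52% of probes had an unadjusted p under 0.05, and the 1 of the 7 that did was NR5A1, which lacks a detected BCO value. Estradiol against control, which shares the control arrays with BCO against control, differed by 0.08 ± 0.67 (-1.36 to 1.52), where the fit called 0% of probes and 3.29% had an unadjusted p under 0.05, 0 of them among the 7. Within slides that difference was 1.39 on slide 1 and -1.23 on slide 2. It rests in part on undetected spots, since 2 of 4 control and 3 of 4 estradiol spots were well above background.

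Estradiol+BCO against estradiol gave -0.31 ± 0.67 for NR5A1 (95% interval -1.75 to 1.13), with 2 of 4 and 3 of 4 spots well above background. In that comparison 1 probe (0.00773%) was called and 7.75% had an unadjusted p under 0.05 (limma), again 0 of the 7. The interaction of the treatments, which asks whether occlusion changed the level differently after estradiol, was 1.87 ± 0.95 for NR5A1 (adjusted p = 0.732, limma), again with undetected BCO spots, where 1 probe (0.00773%) was called and 7.20% had an unadjusted p under 0.05, with 0 of the 7. With normexp correction the NR5A1 interaction was -0.06, so its direction depended on the background correction.

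The genes listed as NR5A1 targets, partners or ventromedial nucleus genes had 12 of 20 members on the array, of which 10 were tested. This list and those below were drawn up with earlier results of these data known. In BCO against control 9 were lower and 1 was higher, 0 passed in either direction, and the median difference was -0.15, where 47.8% of all probes were lower and their median was 0.01. ADCYAP1, the peptide PACAP of ventromedial neurons, had a level of 3.82 ± 0.39 in control and 2.84 ± 1.17 in BCO (SD, n = 4), a difference of -0.97 ± 0.47 with an adjusted p of 0.701. ESR1, the estrogen receptor alpha that ventromedial neurons carry, differed by -1.53 ± 0.41 (adjusted p = 0.466, limma). TAC1, the substance P precursor, differed by -0.06 ± 0.23. LHB, a pituitary hormone subunit driven by NR5A1 in gonadotropes, differed by -0.11 ± 0.19.

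ISL1, the arcuate factor, was well above background on 16 of 16 arrays with both probes. The brighter probe read -2.07, -2.19, -1.48 and -1.39 in control, and -3.09, -1.71, -2.67 and -4.62 in BCO. The same probe read -1.95, -1.28, -2.40 and -3.06 in estradiol, and -2.16, -1.97, -3.41 and -2.20 in estradiol+BCO. In BCO 3 of 4 fetuses lay below the lowest control, while replicate 2 was inside the control range and replicate 4 was far below all others. The estradiol groups overlapped both.

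The dimmer ISL1 probe repeated this order, with -2.20, -2.33, -1.60 and -1.20 in control and -3.13, -1.72, -2.74 and -5.35 in BCO. In estradiol it read -1.95, -1.35, -2.56 and -3.06, and in estradiol+BCO -2.34, -1.81, -3.69 and -2.36. The difference between the probes stayed between -0.19 and 0.29 on 15 arrays and was 0.73 on BCO replicate 4, the array with the lowest ISL1 signal.

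The difference between BCO and control was -1.24 ± 0.53 for the brighter ISL1 probe (95% interval -2.38 to -0.10, adjusted p = 0.651, limma). The dimmer probe gave -1.40 ± 0.64 (-2.77 to -0.04, adjusted p = 0.681, limma). Exact permutation gave p = 0.0857 and p = 0.114, neither under 0.05, where the smallest p that 4 against 4 allows is 0.0286. The limma intervals are not adjusted for the number of probes tested. On slide 1 the brighter probe differed by -0.27 and on slide 2 by -2.21. Without BCO replicate 4 its difference was -0.71, and that of the dimmer probe was -0.70.

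In the other comparisons the brighter ISL1 probe differed by -0.39 ± 0.53 for estradiol against control and by -0.26 ± 0.53 for estradiol+BCO against estradiol. It differed by 0.59 ± 0.53 for estradiol+BCO against BCO and the interaction was 0.98 ± 0.75. The estradiol against control difference was 0.52 on slide 1 and -1.30 on slide 2. Estradiol replicates 3 and 4, on slide 2, were the low fetuses of that group for ISL1. For NR5A1 replicate 4 was the lowest of the group, while replicate 3 (-7.15) lay close to replicate 1 (-7.03). With normexp correction replicate 3 had the highest NR5A1 level of the group, at -3.80.

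The arcuate genes and ISL1 partners had 8 of 28 members on the array, and all 8 were tested. In BCO against control 8 of 8 were lower and 0 passed, and 7 had an unadjusted p under 0.05 (limma), against 7.17% of all probes. The median was -1.62 against 0.01 over all probes. The list was drawn up with earlier results of these data known, so nothing is read from these counts. GHRH, a member of the list, had 0 of 4 BCO spots well above background and was tested through its level in the other groups. SST, the precursor of somatostatin, was 4.02 ± 0.46 in control and 2.70 ± 0.62 in BCO (SD, n = 4), a difference of -1.32 ± 0.41 (adjusted p = 0.493). NPY, which drives feeding, differed by -1.70 ± 0.77 and POMC, the melanocortin and ACTH precursor, by -1.54 ± 0.51. GAL, the peptide galanin, differed by -2.82 ± 0.56 (adjusted p = 0.466, limma). In estradiol+BCO against BCO 2 of the 8 were lower and 6 higher, 0 passed, and 53.7% of all probes were lower. That comparison uses the same BCO arrays and the same undetected GHRH spots.

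The pattern of ISL1 over the 16 arrays was most like that of SST among 851 other named genes, with Pearson r of 0.85, and 0.86 after each group's mean was subtracted. It was followed by BRS3, an orphan bombesin receptor (0.82), NPY (0.78), DIRAS3 (0.78) and GHRH (0.76). BCO replicate 4 had the lowest SST level of the 16, at 1.77, and also the lowest ISL1. These values share arrays and scaling and are given as a description. With normexp correction the 5 values were 0.72 to 0.84. On slide 1 alone SST gave 0.54 and on slide 2 alone 0.94.

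NR5A1 was most like GHRH, the growth hormone releasing hormone of the arcuate nucleus, with r of 0.92 over 16 arrays and 0.87 with group means subtracted. POMC (0.82), GAL (0.82), SST (0.82) and AGRP (0.79) followed, the last being the agouti-related peptide of arcuate feeding neurons. GHRH levels were -4.21, -2.09, -1.49 and -1.21 in control and -8.40, -7.77, -7.74 and -9.58 in BCO, where 0 of 4 spots were well above background. In estradiol GHRH read -0.63, 0.04, -3.29 and -6.87, and in estradiol+BCO -2.49, -1.30, -7.53 and -6.72. Control replicate 1, estradiol replicate 4 and estradiol+BCO replicates 3 and 4 were low for both genes, and within BCO no order can be read for either. With normexp correction r fell to 0.57 for GHRH and to between 0.44 and 0.55 for the other 4, and without the 4 BCO arrays it was 0.85 for GHRH.

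**Figure D2:**
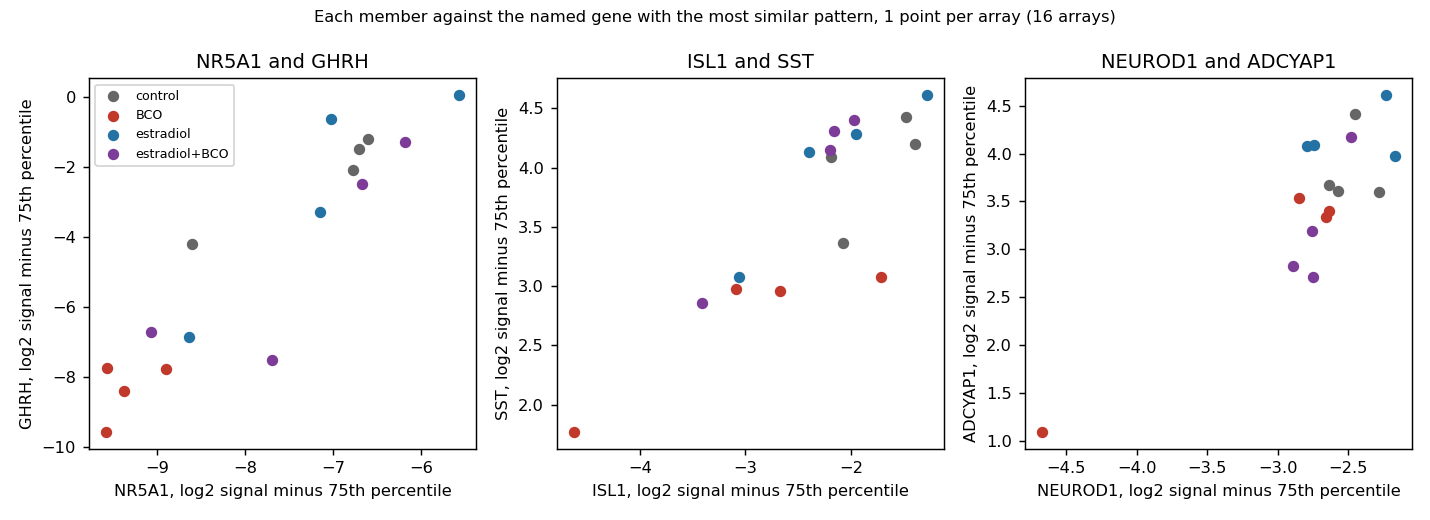
Each point is 1 of 16 arrays, colored by group, with the scaled log2 level of NR5A1, ISL1 or NEUROD1 on the horizontal axis and that of the named gene most like it on the vertical axis. GHRH and NR5A1 were both low in the BCO fetuses (r = 0.92, and 0.57 with normexp correction). NR5A1 was well above background on 7 of the 16 arrays and GHRH on 11, which the symbols do not mark. BCO replicate 2 is lowest on both axes for NEUROD1 and ADCYAP1.

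ARNT2, the paraventricular and supraoptic factor, was the steadiest of the 4 by its brighter probe. That probe read -4.89, -5.24, -5.30 and -5.74 in control, -5.32, -5.41, -5.44 and -5.18 in BCO, -5.26, -5.39, -5.36 and -5.44 in estradiol, and -5.60, -5.32, -5.35 and -5.47 in estradiol+BCO. All groups overlapped, and the control fetuses held both the highest and the lowest level. Its spread within groups was 0.20, where the median over all tested probes was 0.25 and the ISL1 and NR5A1 probes reached 0.81 to 1.03.

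The brighter ARNT2 probe differed by -0.05 ± 0.14 in BCO against control (95% interval -0.35 to 0.26) and by -0.07 ± 0.14 in estradiol against control (-0.37 to 0.24). Estradiol+BCO against estradiol gave -0.07 ± 0.14 (-0.38 to 0.23) and against BCO -0.10 ± 0.14 (-0.40 to 0.21). The 4 intervals end within 0.40 of 0 on the log2 scale. The signs of the first pair turn under normexp correction, to 0.01 and 0.13, so no direction is given.

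The dimmer ARNT2 probe read -5.13, -5.39, -4.98 and -5.51 in control, -5.28, -5.07, -7.40 and -5.66 in BCO, -5.48, -5.04, -5.28 and -5.33 in estradiol, and -5.42, -5.12, -5.96 and -5.25 in estradiol+BCO. BCO replicate 3 was its only spot not well above background, at 13.85 units, where the brighter probe read 53.76 units on the same array. The pair differed by 1.96 there and by -0.35 to 0.61 on the other 15 arrays, although the probes share 59 of 60 bases. The BCO against control difference of this probe was -0.60 ± 0.38 (adjusted p = 0.811, limma), and -0.08 without that array.

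**Figure D3:**
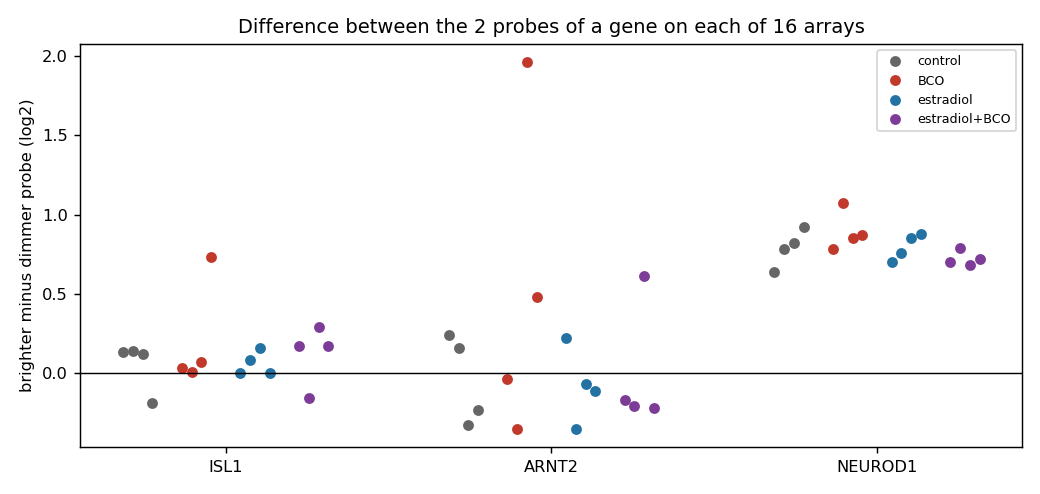
Brighter minus dimmer probe (log2, vertical axis) on each of 16 arrays for ISL1, ARNT2 and NEUROD1, colored by group. The pairs stay close together within a gene except for ARNT2 on BCO replicate 3 (1.96) and ISL1 on BCO replicate 4 (0.73).

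The bHLH-PAS partners of ARNT2 and the paraventricular and supraoptic genes had 8 of 20 members on the array, all 8 tested. In BCO against control 2 were lower and 6 higher, 0 passed, and the median was 0.11. HIF1A, the oxygen-sensing bHLH-PAS subunit, differed by 0.02 ± 0.21, and the clock genes PER2 and CRY1 by -0.01 ± 0.26 and 0.01 ± 0.11. OXT, the oxytocin gene of both nuclei, was 1.28 ± 1.64 in control, -1.42 ± 2.08 in BCO, 1.27 ± 0.53 in estradiol and 2.91 ± 0.48 in estradiol+BCO (SD, n = 4). Its differences were -2.70 ± 0.90 for BCO against control (adjusted p = 0.510) and 4.33 ± 0.90 for estradiol+BCO against BCO (adjusted p = 0.149, limma), neither past the threshold. ARNT2 did not share that spread.

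The named genes most like ARNT2 over the 16 arrays were LAT1 (r = 0.75), ARFIP2 (0.73), PYGB (0.58), FGFR3 (0.58) and SLC39A7 (0.58). None of them is on the list of ARNT2 partners. With normexp correction the values lay between 0.25 and 0.75.

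NEUROD1 was well above background on 16 of 16 arrays with both probes. The brighter probe read -2.28, -2.64, -2.57 and -2.45 in control, and -2.64, -4.67, -2.85 and -2.66 in BCO. In estradiol it read -2.74, -2.17, -2.23 and -2.79, and in estradiol+BCO -2.75, -2.48, -2.76 and -2.89. The BCO group lay just below control with 3 of its fetuses close to it and replicate 2 far below.

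The dimmer NEUROD1 probe, at its other site, read -2.92, -3.42, -3.39 and -3.37 in control, and -3.42, -5.74, -3.71 and -3.52 in BCO. In estradiol it read -3.44, -2.94, -3.08 and -3.66, and in estradiol+BCO -3.45, -3.27, -3.44 and -3.61. The probe pair differed by 0.64 to 1.07 on every array, so the low BCO replicate 2 was read at both sites.

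BCO against control was -0.72 ± 0.35 for the brighter NEUROD1 probe (95% interval -1.47 to 0.03) and -0.82 ± 0.39 for the dimmer (-1.66 to 0.01), each with an adjusted p of 0.701 by limma. Without BCO replicate 2 the differences were -0.23 and -0.28. Slide 1, which holds that fetus, gave -1.19 and -1.41, and slide 2 gave -0.25 and -0.24. Estradiol against control differed by 0.00 ± 0.35 for the brighter probe (-0.75 to 0.75). Estradiol+BCO against estradiol gave -0.24 ± 0.35, estradiol+BCO against BCO 0.49 ± 0.35 and the interaction 0.49 ± 0.49.

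Of the 30 genes listed as the NEUROD1 family, its partners and forebrain genes, 1 was named on the array. PAX6, a homeodomain factor of forebrain progenitors, was -2.02 ± 0.43 in control and -1.67 ± 0.61 in BCO (SD, n = 4), a difference of 0.34 ± 0.31 (adjusted p = 0.907, limma). The list therefore gives no reading of the family.

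NEUROD1 was most like ADCYAP1 (r = 0.86, and 0.84 with group means subtracted), and among the next were NKX2.2 (0.67), CRHBP, which binds corticotropin-releasing hormone (0.66), and CAPNS1 (0.65). ADCYAP1 read 3.40, 1.09, 3.54 and 3.34 in BCO, and its lowest array of the 16 was BCO replicate 2, as for NEUROD1. Without the 4 BCO arrays the r with ADCYAP1 was 0.58, and the r with CAPNS1 was 0.07.

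**Figure D4:**
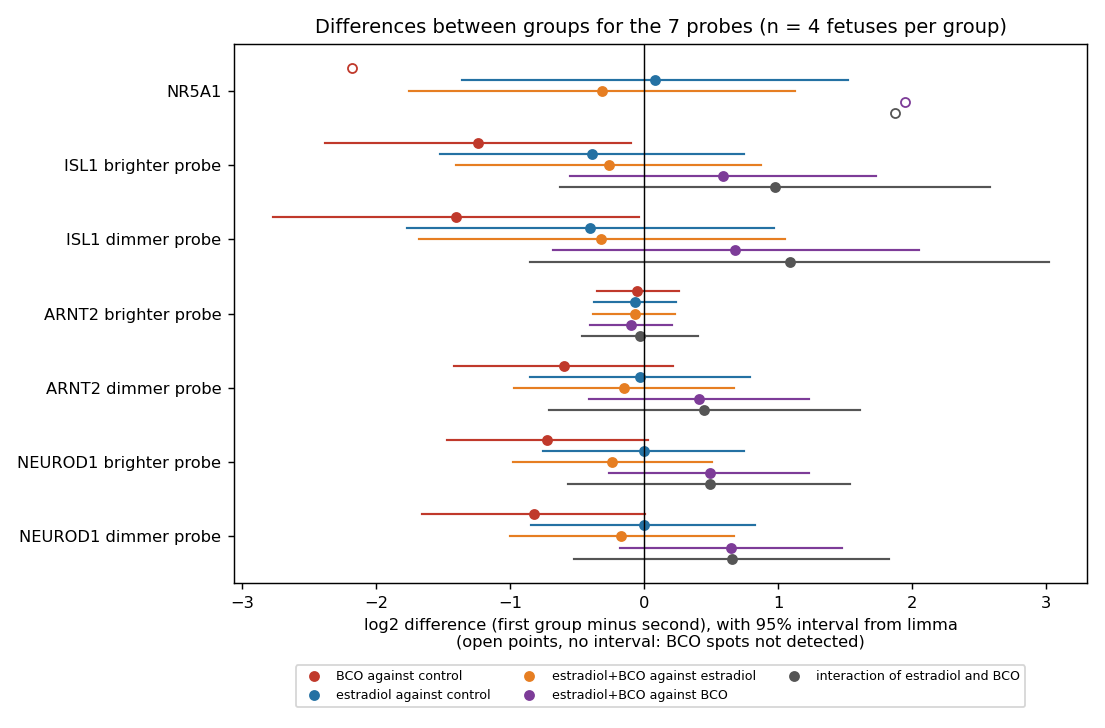
Log2 differences (points) with 95% intervals from limma (lines) for the 7 probes in the 5 comparisons, 4 fetuses per group. The intervals of the brighter ARNT2 probe are the narrowest, and no difference passed the adjusted threshold. The open NR5A1 points, drawn without an interval, rest on undetected BCO spots. The NR5A1 intervals that are drawn also include undetected spots of the other groups.

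The levels of the 4 genes were also related to each other over the 16 arrays, by the brighter or single probe, in 6 pairs. NR5A1 and ISL1 gave Pearson r of 0.63 (permutation p = 0.00564, adjusted 0.0338) and Spearman rho of 0.72 (p = 0.00223, adjusted 0.0134). With group means subtracted r was 0.49 (adjusted permutation p = 0.173, permuted within groups) and rho 0.69 (adjusted 0.0188). Within slides r was 0.59 on slide 1 and 0.67 on slide 2, with adjusted exact permutation p of 0.580 and 0.156 over 8 arrays each. Without the 2 arrays farthest from the median NR5A1 level r was 0.54 (permutation p = 0.0459, adjusted 0.212), so the call of r does not hold without them. Of the 16 NR5A1 values only 7 were well above background. Leaving out 1 array at a time gave r of 0.57 to 0.71, and the adjusted p of r lost the threshold without BCO replicate 1 or 4, control replicate 3 or 4, estradiol replicate 1, 2 or 4, or estradiol+BCO replicate 1 or 2. With 1 array left out, the adjusted p of rho lost it only without estradiol replicate 2 (permutation, 0.0526). The adjusted permutation p of rho also missed the threshold without the 2 farthest arrays (0.0806), with normexp correction (0.128) and with quantile normalization (0.0672). On slide 1 and slide 2 alone the adjusted exact permutation p of rho was 0.601 and 0.249.

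NR5A1 and NEUROD1 gave r of 0.40 (permutation p = 0.0948, adjusted 0.284) and rho of 0.60 (p = 0.0164, adjusted 0.0491), which fell to 0.03 and 0.13 with group means subtracted. The NR5A1 ranks of the BCO arrays come from undetected spots. The adjusted permutation p of rho was 0.131 with quantile normalization, 0.0595 with normexp correction and 0.0806 without the 2 farthest arrays. With 1 array left out it ran from 0.0265 to 0.159. Without the 2 farthest arrays r was 0.46, and within slides it was 0.46 and 0.71. ISL1 and NEUROD1 gave r of -0.02 (permutation p = 0.923, adjusted 0.923) and rho of 0.39 (p = 0.138, adjusted 0.276). Their r was -0.11 on slide 1, 0.31 on slide 2 and -0.01 without the 2 farthest arrays. It was 0.42 without BCO replicate 2, whose ISL1 lay inside the control range while its NEUROD1 was the lowest of all. The lowest ISL1 and the lowest NEUROD1 thus fell in different BCO fetuses.

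ARNT2 had r of -0.22 with NR5A1, -0.26 with ISL1 and 0.17 with NEUROD1 (permutation p = 0.416, 0.317 and 0.396; adjusted 0.499 each), with rho of -0.12, -0.15 and 0.34 (p = 0.648, 0.567 and 0.196). Without the 2 farthest arrays these r were -0.21, -0.11 and 0.21. With normexp correction the r of NR5A1 and ARNT2 turned to 0.63 (permutation p = 0.0145, adjusted 0.0872). Estradiol replicate 3 then had the highest level of the 16 for both, at -3.80 and -3.63, and r without it was not computed. On slide 1 the r of ARNT2 with NR5A1, ISL1 and NEUROD1 were -0.33, -0.10 and 0.32. On slide 2 they were -0.35, -0.66 and -0.08, and none on either slide passed an adjusted p of 0.05 (exact permutation).

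Markers of the neighboring pituitary were measured beside these genes, since NR5A1, ISL1 and NEUROD1 are also made there. Of 20 pituitary markers 10 were on the array and 7 were tested, all 7 lower in BCO than in control with 0 passing (median -1.31). POMC is also on the arcuate and peptide lists and LHB and CGA on the NR5A1 list, and the differences of LHB and GHRHR were -0.11 and -0.03. The summed level of the 7, in multiples of the 75th percentile and weighted towards the brightest probes, was 5.50 to 11.4 in control, 4.55 to 6.58 in BCO, 6.35 to 18.9 in estradiol and 5.20 to 7.80 in estradiol+BCO. CGA, the common subunit of pituitary glycoprotein hormones, ranged from -6.48 to 1.38 in control and from -7.46 to -0.01 in BCO. PRL, prolactin, ranged from -3.82 to 1.12 in control and from -6.47 to -2.19 in BCO. The part of pituitary RNA in the levels of the 4 genes was not tested.

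The list of 14 hypothalamic peptide genes shares SST, POMC, NPY, GAL, TAC3, AGRP and GHRH with the arcuate list and ADCYAP1 and TAC1 with the NR5A1 list. In BCO, GHRH had 0 of 4 spots well above background and GNRH1 2 of 4. Of the 14 genes, 13 were lower and 1 higher in BCO than in control, with a median of -1.62 and 0 passing. Their summed level, weighted towards the brightest probes (SST and ADCYAP1 had the highest means), ran from 34.9 to 57.1 in control and from 17.5 to 25.9 in BCO. In estradiol it ran from 34.5 to 65.4 and in estradiol+BCO from 30.4 to 55.6. Of the 4 BCO fetuses, 4 lay below every control for NR5A1 and for both NEUROD1 probes, as for 1.72% of all probes with complete values. The count was 3 for both ISL1 probes, 2 for the dimmer ARNT2 probe and 0 for the brighter one. For NR5A1 and NEUROD1 the separation was lost with quantile normalization and with normexp correction. NEUROD1, with gaps of 0.001 and 0.006, also lost it with median centring, and nothing is read from these counts. Whether the amount of ventral hypothalamus in each sample differed was not tested.

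Markers of other cells were measured in small numbers. Of 4 astrocyte markers 2 were lower and 2 higher in BCO than in control (median 0.01). The 3 endothelial and mural markers were higher (median 0.20), the 2 microglial markers were lower (median -0.24), and of 5 fibroblast and meninges markers 4 were lower (median -0.02). Of 2 ependymal and choroid plexus markers 1 was lower. None of these passed. General neuron and oligodendrocyte markers were named by 0 probes each, so the share of neurons as a whole was not measured.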

How the data were processed

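Per the labels, 500 ng of hypothalamic RNA per fetus was labeled with Cy3 and hybridized to 1 array. The deposited scanner files hold the processed signal as an intensity, background-subtracted by Feature Extraction 10.1.1.1 per the file headers (spot flags came along). A second deposited table gives log2 values. They equal the log2 of that signal after centring each array on its median feature (largest deviation 5e-09).

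Spots with outlier flags were set to missing (2 to 36 per array), repeated spots of 50 probes were averaged, and each array's 75th percentile was subtracted. Probes well above background on at least 4 arrays were tested, leaving out 2071. Names came from the files and from a RefSeq table of assembly ARS-UI_Ramb_v3.0, and 1551 probes carried 961 names. A gene of a list was read by its brightest probe. The files name no genome build and no coordinates are given.

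All 16 arrays entered 1 model of the 4 groups (limma 3.58.1, R 4.3.3, 2-sided). In data simulated for BCO against control over 12854 probes, 66% of 100 probes changed by 1 and 88% of 100 changed by 2 (log2) were called, with 12 false calls. The simulated noise was independent and normal, with equal spread in every group and no slide difference, so the shares hold for those settings only. On the real arrays 860 probes differed between slides. Least of all can the shares be carried over to the NR5A1, ISL1, NEUROD1 and dimmer ARNT2 probes. Their spread within groups was 0.53 to 1.03, where the median over all tested probes was 0.25. Single values had exact 2-sided permutation tests over 70 splits, and relations 100000 permutations. Probes named were all members, the 5 named genes most like each, and up to 4 genes per member list with the highest mean level, of which 1 is not reported here. The genes and lists were chosen with earlier results of these data known. Nothing in the labels describes a repeated fetus; the highest correlation between 2 arrays was 0.99. Replicate numbers were not taken to pair the fetuses, since same-numbered arrays did not all correlate above 0.1 after group means were subtracted (0.10 to 0.27 for replicates 1 and 4, -0.03 to 0.17 for replicates 2 and 3). Alternatives were quantile normalization, median centring, normexp with an offset of 50, other filters, slide or replicate blocks, each slide alone, the value table and each fetus left out.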

Additional observations from a re-analysis of the deposited data

Results flagged for a closer look

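In groups of 4 fetuses, 5 of 28 groups (7 probes in 4 groups) held 1 array that stood apart from the other 3 by most of the group's range, by Dixon's criterion at 95%. Chance alone marks about 1 in 20 independent groups. These 28 share their arrays, and the 2 probes of a gene read 1 target, so the count cannot be set against that share. NR5A1 was lowest in control replicate 1, at -8.61, a spot not well above background. The brighter ISL1 probe was lowest in estradiol+BCO replicate 3, at -3.41. BCO replicate 2 was lowest for both NEUROD1 probes, at -4.67 and -5.74. The dimmer NEUROD1 probe was highest in control replicate 1, at -2.92.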

How the results depend on the processing

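Over 29 settings, 998 values of the 7 probes were recomputed: 959 kept their direction and their side of the threshold, 39 changed direction, and 0 passed the threshold. A value that rounds to 0.00 was given no direction. In the sentences below the brighter and dimmer probes are named by gene, and the cause of a change was not tested. Signals near background limit NR5A1 throughout.

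With normexp correction the brighter ARNT2 probe gave 0.01 (BCO against control) and 0.13 (estradiol against control), the dimmer ARNT2 probe 0.12 for estradiol against control and -0.09 for the interaction, and NR5A1 -0.06 for the interaction. Median centring gave 0.01 for the interaction of the brighter ARNT2 probe. On slide 1 alone that interaction was 0.17, and the dimmer ARNT2 probe gave 0.09 when BCO was set against control, -0.10 when estradiol+BCO was set against BCO and -0.10 for the interaction. The ISL1 probes on slide 1 gave 0.52 (brighter) and 0.61 (dimmer) for estradiol against control and -0.19 and -0.26 for the interaction. On slide 2 alone the brighter ARNT2 probe gave 0.21 for BCO against control and 0.12 for estradiol against control, NR5A1 -1.23 for estradiol against control, and the brighter NEUROD1 probe -0.07 for estradiol+BCO against BCO and -0.06 for the interaction.

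Leaving out 1 fetus at a time turned a direction in these ranges. For the brighter ARNT2 probe they were -0.19 to 0.09 (BCO against control), -0.22 to 0.07 (estradiol against control) and -0.16 to 0.12 (interaction). For the dimmer ARNT2 probe they were -0.12 to 0.06 (estradiol against control), -0.10 to 0.67 (estradiol+BCO against BCO), -0.26 to 0.02 (estradiol+BCO against estradiol) and -0.07 to 0.71 (interaction). For ISL1 they were -0.56 to 0.06 (brighter) and -0.59 to 0.06 (dimmer) for estradiol+BCO against estradiol, and -0.02 to 1.19 (dimmer) for estradiol+BCO against BCO. For NR5A1 they were -0.43 to 0.59 (estradiol against control) and -0.82 to 0.25 (estradiol+BCO against estradiol).

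The r of NR5A1 and ISL1 lost the threshold with group means subtracted (0.49), on slide 1 (0.59), on slide 2 (0.67), without the 2 farthest arrays (0.54), with normexp correction (0.47) and with quantile normalization (0.61), and ran from 0.57 to 0.71 with 1 fetus left out, a setting chosen after seeing the data. The r of ISL1 and NEUROD1 was 0.31 on slide 2 and -0.12 to 0.42 with 1 fetus left out, that of ARNT2 and NEUROD1 -0.08 on slide 2, and that of NR5A1 and ARNT2 0.63 with normexp correction. The likeness of named genes under normexp, on each slide and without the BCO arrays was also chosen after seeing the data.

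Over the whole array, BCO against control called 14 probes on slide 2 alone, 3 with only the groups compared and 0 to 6 with 1 fetus left out (6 without BCO replicate 2). Estradiol against control called 1 on slide 2. Estradiol+BCO against BCO called 14 on slide 2 and 0 to 5 with 1 fetus left out (5 without BCO replicate 1). Estradiol+BCO against estradiol called 0 with median centring, each slide alone, the value table or only the groups compared, and 0 to 1 with 1 fetus left out. The interaction called 0 with quantile normalization, median centring, no filter on dim probes, each slide alone, the value table or outlier spots kept, 3 with slide as a block, and 0 to 3 with 1 fetus left out. With the replicate number as a block, estradiol+BCO against estradiol called 0 and the interaction 3, and no call of the 7 probes changed. Of 16 arrays 3 correlated best with an array of their own number.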
